A study of Mus musculus with 6 samples.

Results

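Oxidative phosphorylation is carried out by 5 protein complexes of the inner mitochondrial membrane, and most of their subunits are encoded by nuclear genes. These genes were taken from the gene table by symbol: Ndufa, Ndufb, Ndufc, Ndufs or Ndufv followed by a number, any symbol that starts with Uqcr, Atp5 or Cox4 to Cox8, and Sdha, Sdhb, Sdhc, Sdhd and Cyc1. The rule matched 82 genes, and 80 of them had a level of at least 1 FPKM (a level per kilobase of transcript and sequencing depth) in 1 or more libraries. They are 80 of the 11549 genes that reached this level in the whole table. Cox4i2 and Ndufa4l2 stayed under 1 FPKM in all 6 libraries. The 80 genes comprise 35 of complex I, 4 of complex II, 9 of complex III, 15 of complex IV and 17 of complex V. Ndufa4 is counted here with complex IV, where its protein is found, and Cox7a2l, Atp5s and Atp5sl match by symbol although their proteins are not constant subunits of an enzyme.

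The study compared macrophages grown from the bone marrow of Setd2-KO mice with macrophages of WT mice, before LPS (0 h) and after 12 and 24 h of LPS at 100 ng/ml. Setd2 encodes the enzyme that trimethylates lysine 36 of histone H3, and LPS, from the outer membrane of bacteria, activates macrophages through Toll-like receptor 4. All 6 groups were C57BL/6 mice of 8 weeks, and the marrow cells were cultured with M-CSF, the macrophage growth factor, for 5 days. Each of the 6 groups was 1 library, so no difference has a replicate error and no test was made. The labels give neither the Setd2 allele nor the Cre line, if one was used, nor whether libraries share an animal or a culture.

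Complex I oxidizes NADH and complex II oxidizes succinate, both passing electrons to ubiquinone. Complex III hands them on through cytochrome c to complex IV, which reduces oxygen, and complex V, the ATP synthase, uses the proton gradient built by complexes I, III and IV. Macrophages activated with LPS are known for a move of their energy metabolism towards glycolysis, with altered use of complexes I and II. The transcripts of the small subunits are among the shortest abundant messages of a cell.

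The gene level of Setd2 did not separate the libraries by label. Setd2 held 9.96, 9.16 and 5.11 FPKM in the libraries labelled KO at 0, 12 and 24 h, against 7.83, 8.68 and 7.51 FPKM in WT. A gene level cannot show the loss of a few exons, so it does not check the label, and KO is used below as the name on the library. Depth was estimated at 21730000 to 22560000 reads per library from the spacing of low FPKM values, and the number is approximate. All 8 macrophage markers were above 1 FPKM in every library, with a summed level of 2411 to 3020 FPKM in KO and 2699 to 4068 FPKM in WT, while summed T cell markers stayed at or below 1.35 FPKM, B cell markers at or below 0.22 FPKM and erythroid markers at or below 0.66 FPKM. The neutrophil markers summed to 36.7 to 63.8 FPKM in KO and 74.9 to 80.5 FPKM in WT, and the 3 megakaryocyte markers to 97.4, 104 and 690 FPKM in KO at 0, 12 and 24 h, against 103, 106 and 251 FPKM in WT. Nearly all of the megakaryocyte sum was Pf4, with 89.9, 95.5 and 685 FPKM in KO, against 95.4, 96.0 and 245 FPKM in WT, while Itga2b and Gp1ba were lower at 24 h than at 0 h in both genotypes. Dendritic cell markers stayed at or below 2.73 FPKM and stromal ones at or below 12.1 FPKM, and the part of any of these in the differences below was not tested. In a bulk library, fewer cells of a type and less RNA per cell cannot be told apart.

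Subunits of the terminal enzymes were the most abundant. Atp5b, the catalytic β subunit of the ATP synthase, had 423, 352 and 397 FPKM in the libraries labelled KO at 0, 12 and 24 h, against 454, 343 and 392 FPKM in WT. Cox4i1, the largest nuclear subunit of complex IV, had 371, 265 and 487 FPKM in KO, against 576, 294 and 363 FPKM in WT. Cox6a1, the non-muscle form of subunit VIa, had 344, 262 and 423 FPKM in KO, against 526, 282 and 392 FPKM in WT. These 3 genes were lowest at 12 h in both genotypes. Atp5e, the ε subunit of the rotor stalk, followed in complex V with 188, 132 and 310 FPKM in KO, against 383, 162 and 248 FPKM in WT.

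In the other complexes the leading members lay lower. Ndufa3, an accessory subunit of complex I, had 122, 92.8 and 192 FPKM in KO at 0, 12 and 24 h, against 204, 109 and 171 FPKM in WT. Ndufb8, an accessory subunit of the membrane arm, had 124, 73.6 and 143 FPKM in KO, against 177, 83.3 and 129 FPKM in WT. The highest level of either gene was at 24 h in KO and at 0 h in WT. Uqcr11, a small subunit of complex III, had 128, 68.4 and 174 FPKM in KO, against 208, 83.9 and 127 FPKM in WT. Uqcrb, the ubiquinone-binding protein of complex III, had 97.7, 75.0 and 99.6 FPKM in KO, against 165, 102 and 135 FPKM in WT. For Uqcrb, WT was above KO at each of the 3 times. Sdhb, the iron-sulfur subunit of complex II, had 96.5, 76.6 and 122 FPKM in KO, against 126, 87.0 and 115 FPKM in WT. Sdhc, one of its membrane anchors, had 107, 82.4 and 90.6 FPKM in KO, against 142, 81.0 and 99.6 FPKM in WT. Complex II varied least, and its median level stayed between 71.8 and 115 FPKM over the 6 libraries.

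**Figure D1:**
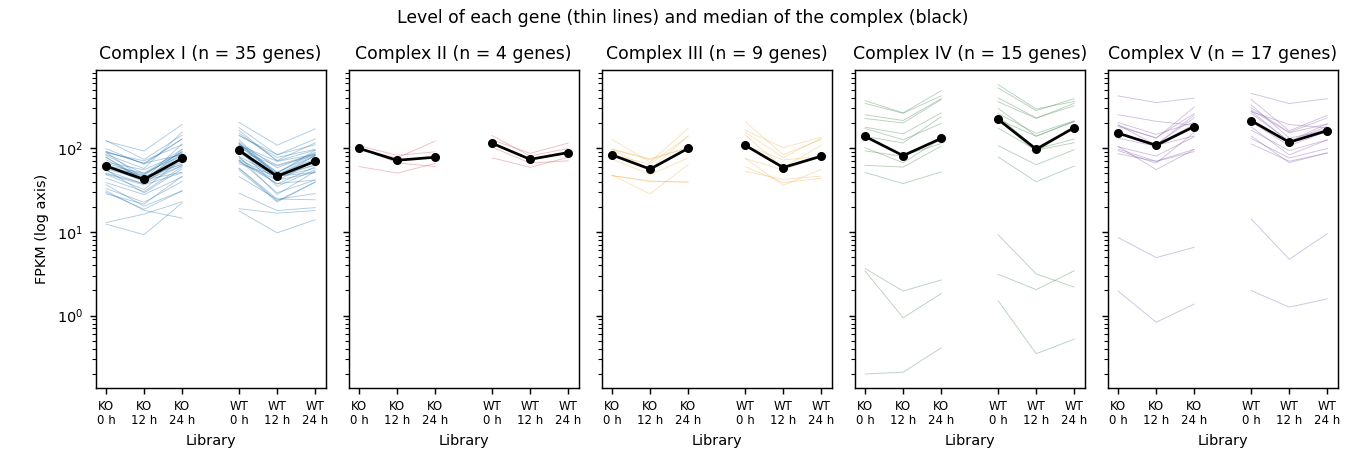
Levels of the 80 genes by complex, with the libraries labelled KO on the left and WT on the right of each panel, times of 0, 12 and 24 h on the horizontal axis and FPKM on a log axis. Thin lines are genes and black points the median of the complex; in all 5 panels the WT median is highest at 0 h and the median of either genotype is lowest at 12 h.

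Together the 80 genes took 1.72, 1.26 and 1.68% of all FPKM in the libraries labelled KO at 0, 12 and 24 h, against 2.25, 1.34 and 1.60% in WT. Their median level was 84.0, 55.9 and 94.0 FPKM in KO, against 113, 63.2 and 87.8 FPKM in WT. So the gap between genotypes was widest before LPS, and at 24 h the KO median was the higher one. The highest of the 6 values of a gene was in WT at 0 h for 67 of the 80 genes, in KO at 24 h for 9, in WT at 24 h for 3 and in KO at 0 h for 1. The lowest was in KO at 12 h for 65 genes and in WT at 12 h for 9. A dip, with 12 h below both 0 h and 24 h, was seen for 73 genes in KO and for 77 in WT.

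**Figure D2:**
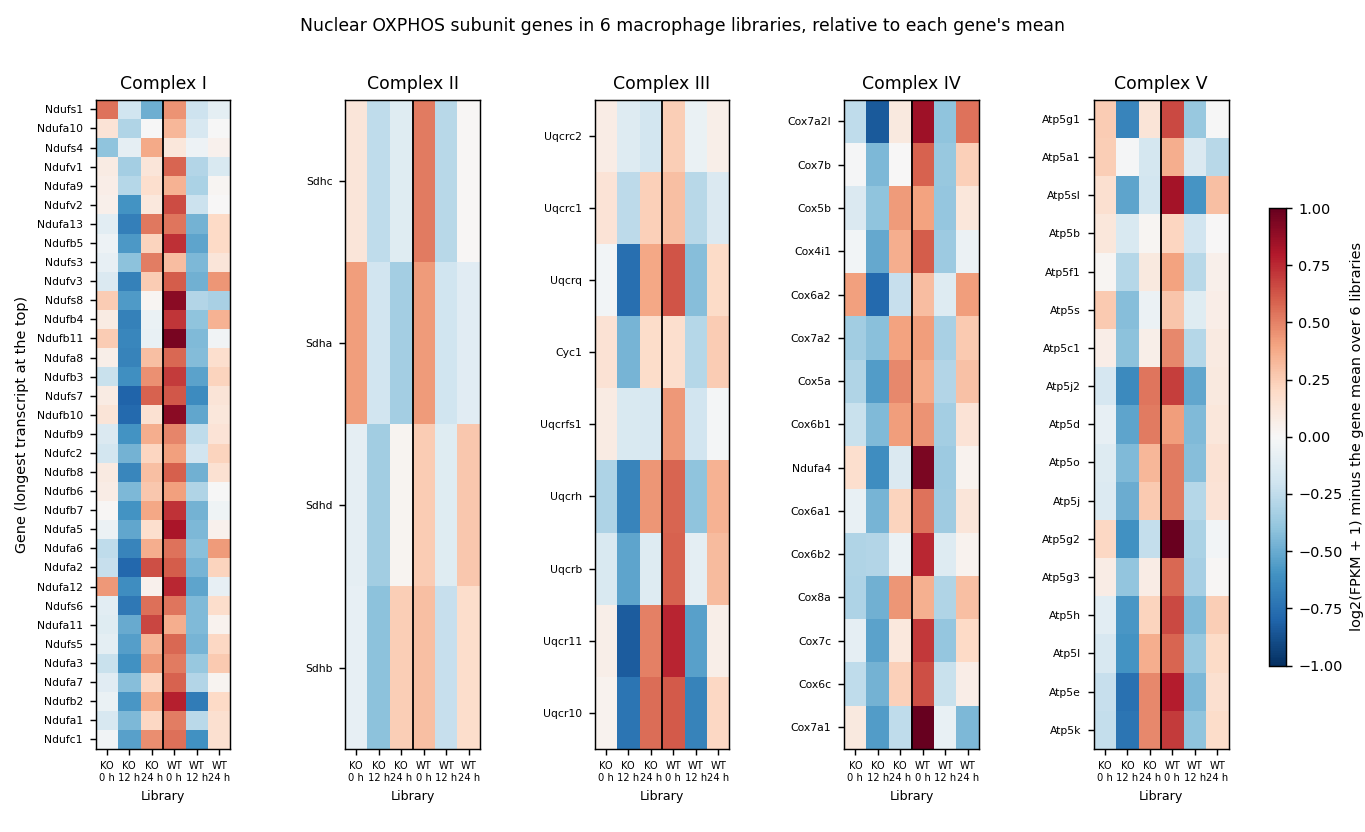
Genes of the 5 complexes in the 6 libraries (1 of complex I is not drawn), as log2(FPKM + 1) minus the mean of the gene over the libraries (color scale), with the longest transcript at the top of each panel and the KO libraries left of the WT libraries. The WT 0 h column is the highest for 67 of the 80 genes, the KO 12 h column is the lowest for 65, and in complex I the long transcripts at the top (Ndufs1, Ndufa10, Ndufs4) have a paler WT 0 h column than most genes below them.

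Promoter letters, which the choice by symbol did not use, were searched next, and no motif was held by most of the genes. Promoter windows of RefSeq (GRCm38.p6), from 250 bases before to 50 bases after a transcript start, were found for 67 of the 80 genes, in 73 windows, and 3 motifs known from promoters of mitochondrial genes were searched as exact letters on both strands. The letters of nuclear respiratory factor 1 (NRF1) are GCGC, any base, then TGCGC. They occurred in 17 of the 67 genes (25.4%), against 12.2% of 9111 measured genes with a window. The YY1 letters AAGATGGC occurred in 11 genes (16.4%), against 5.73% of measured genes, and the ETS letters CCGGAAG in 16 genes (23.9%), against 21.5%. In 9 of the 11 genes with YY1 letters they read in the direction of transcription, between bases 22 and 45 after the start. Such a match anywhere in the 50 bases after the start was held by 13.4% of the 67 genes and 2.71% of measured genes. No NRF1 match overlapped an ETS or YY1 match, 38 of the 67 genes held at least 1 of the 3 motifs, and 6 held more than 1 kind. A match is a description of letters and not a binding site.

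The NRF1 letters are shown for 1 gene each of complexes I, II, IV and V that the results below come back to. All 4 stretches lie before the transcript start, on the minus strand of GRCm38.p6, and capitals mark the NRF1 letters, here each in the reverse-complement form. The Sdha stretch is chr13:74350241-74350280, Cox6a1 is chr5:115349036-115349105, Atp5g2 is chr15:102671050-102671119 and Ndufb4 is chr16:37654369-37654420.
Sdha: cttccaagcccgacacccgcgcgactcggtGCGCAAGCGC
Cox6a1: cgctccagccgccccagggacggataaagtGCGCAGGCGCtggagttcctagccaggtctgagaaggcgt
Atp5g2: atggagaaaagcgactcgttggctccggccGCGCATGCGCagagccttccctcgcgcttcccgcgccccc
Ndufb4: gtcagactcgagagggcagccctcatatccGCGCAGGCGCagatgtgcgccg
The match ends 1 base before the start in Sdha, 108 bases before it in Cox6a1, 33 in Atp5g2 and 13 in Ndufb4. In Atp5g2 the letters read the same on both strands. The 17 genes with NRF1 letters and the 50 without them had nearly equal medians in the comparisons below: at 12 h of LPS against 0 h these were -0.47 and -0.45 in KO, and -0.96 and -0.97 in WT, as differences of log2(FPKM + 1).

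Before LPS, nearly all of the genes were lower in the library labelled KO. The difference of log2(FPKM + 1), KO minus WT, was below 0 for 78 of the 80, with a median of -0.64, against a median of 0.02 over all measured genes. A gene was called at a difference of at least 1, which is 2-fold. No member was called higher, where 2.96% of all measured genes were, and 4 members were called lower, where 1.26% of all measured genes were. The 4 were Cox7a2l, Atp5e, Cox7a1 and Cox6b2. Cox7a2l (chromosome 17, 83501917 to 83514333) had 101 FPKM in KO and 219 FPKM in WT, a difference of -1.10. Its protein is known for a part in joining complexes III and IV into supercomplexes, which were not measured here. Atp5e (chromosome 2, 174461075 to 174464101) had a difference of -1.02. Cox7a1 (chromosome 7, 30184171 to 30186030), the heart and muscle form of subunit VIIa, had 3.65 FPKM in KO and 9.25 FPKM in WT, a difference of -1.14, and Cox6b2, the testis form of subunit VIb, had 0.20 FPKM in KO and 1.5 FPKM in WT, a difference of -1.06. Both of these are weakly expressed: the Cox7a1 values stand for about 27 reads in KO and 69 in WT, and those of Cox6b2 for about 2 and 16. For the 75 members with a mean of at least 10 FPKM, counting error alone gives a log2 difference a standard error with a median of 0.05 and at most 0.20.

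Differences near 0 were mostly those of long transcripts. Ndufs1, the largest subunit of complex I and a carrier of iron-sulfur clusters, had 31.1 FPKM in KO and 29.0 FPKM in WT at 0 h, a difference of 0.10. Cox6a2, the muscle form of subunit VIa, had the same difference of 0.10 from only 3.41 FPKM in KO and 3.11 FPKM in WT. Sdha, the flavoprotein of complex II that oxidizes succinate, had 103 FPKM in both libraries. Cyc1, cytochrome c1 of complex III, had 74.6 FPKM in KO and 75.5 FPKM in WT. By complex, the median difference was -0.63 for complex I, -0.36 for complex II, -0.58 for complex III, -0.67 for complex IV and -0.65 for complex V. Within complex V it was -0.42 for the 5 subunits of the F1 head and its stalk, and -0.70 for the 10 of the membrane part and the peripheral stalk.

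These differences followed transcript length. The median transcript of the 80 genes was 756.5 nt, with a range of 315 to 3171 nt, against a median of 2712 nt over all measured genes with a length. Across genes at 0 h, the Spearman correlation between the KO minus WT difference and length was 0.51 over 11436 genes and 0.62 over the 80 members; genes of 1 library share its composition and are not replicates, so no p is given. Among transcripts over 512 and up to 1024 nt whose mean reached 10 FPKM, the 40 members had a median difference of -0.67 and the 491 other genes one of -0.52. Among those over 1024 and up to 2048 nt the medians were -0.39 for 21 members and -0.21 for 1574 other genes. In the 79 other genes over 8192 nt, where there is no member, the median was 0.67.

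The trend over length was removed from each library with a smooth curve, for which genes averaging 10 FPKM or more were used. The members' median at 0 h then was -0.09, against -0.01 over all measured genes, and no member was called lower, where 0.507% of all measured genes were. The difference was still below 0 for 56 of the 75 members with a mean of at least 10 FPKM. Cox7a2l had the lowest value of these 75 on this scale as well, -0.72, followed by the anchor Sdhc with -0.50. Ndufa12, an accessory subunit of complex I, had the highest value, 0.33. Where the values come from is not settled by removing the trend, since a change of short transcripts as a class and a difference between libraries in how length enters the values cannot be told apart here.

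**Figure D3:**
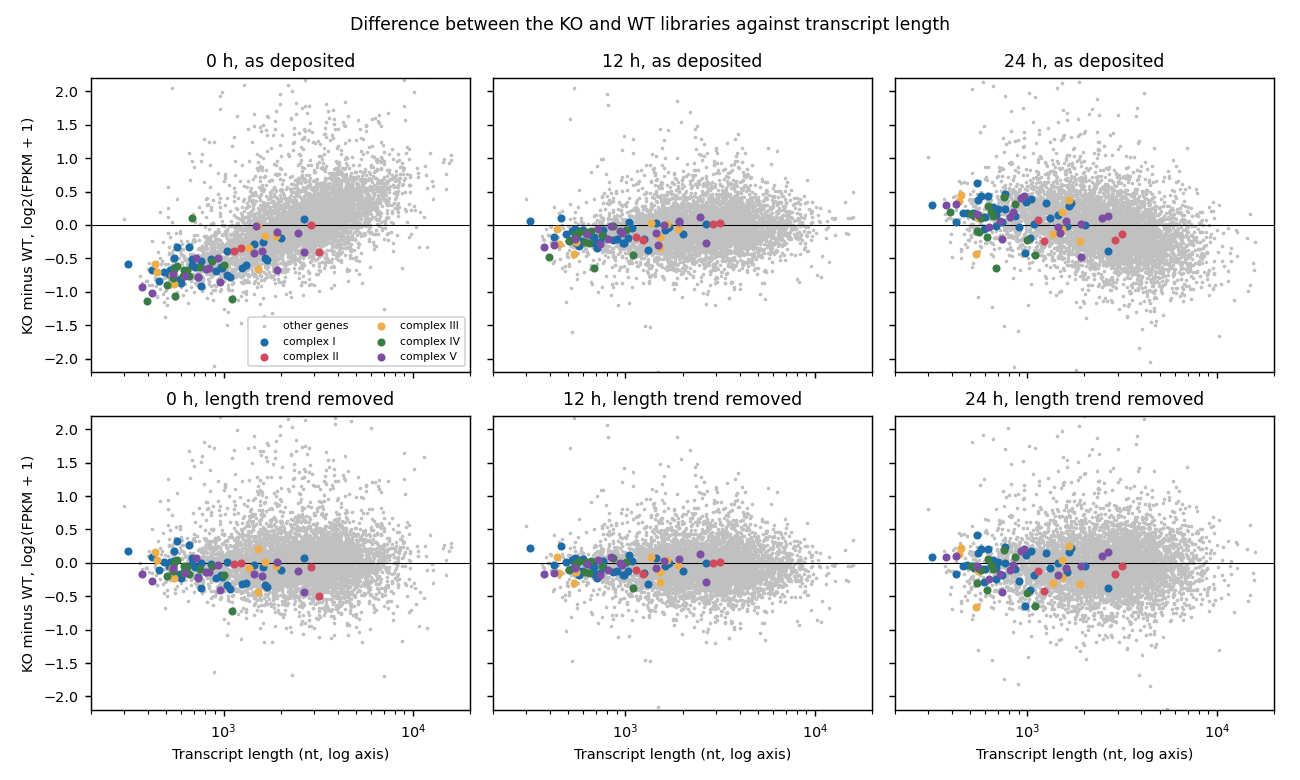
Difference of log2(FPKM + 1), KO minus WT, against transcript length (log axis) at 0, 12 and 24 h, as deposited in the upper row and with the length trend removed in the lower row, for other genes averaging 10 FPKM or more (grey) and the members (coloured by complex; the 5 members with a lower mean are left out of the lower row, and points beyond 2.2 in either direction are not drawn). The grey and coloured points slope together, upwards at 0 h and downwards at 24 h, and lie around 0 in the lower row.

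At 12 h of LPS the genotypes were close. The median difference of the members, KO minus WT, was -0.15, against -0.06 over all measured genes, and 68 of 80 were lower in KO. None was called in either direction, where 1.32% of all measured genes were called higher and 0.727% lower. Atp5a1, the α subunit of the ATP synthase, had the highest difference, 0.13, with 210 FPKM in KO and 193 FPKM in WT. The lowest was that of Cox6a2, -0.65, with 0.94 FPKM in KO and 2.04 FPKM in WT, a level of about 13 and 28 reads. Among abundant members Cox7a2l was lowest again, at -0.44, with 67.0 FPKM in KO and 91.5 FPKM in WT. With the length trend removed the members' median was -0.04.

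At 24 h most members were somewhat higher in the library labelled KO as deposited, and the length trend ran the other way. The median was 0.13, against -0.12 over all measured genes, with 55 members higher and 25 lower in KO. None was called, where 2.22% of all measured genes were called higher and 1.93% lower. Ndufa11 (chromosome 17, 56717762 to 56724248), an accessory subunit in the membrane arm of complex I, had the highest difference, 0.63, with 22.2 FPKM in KO and 14.0 FPKM in WT. Cox6a2 was lowest at -0.65, with 1.83 FPKM in KO and 3.43 FPKM in WT, and the lowest abundant members were Cox7a2l and Uqcrb, each at -0.44. The Spearman correlation with length was -0.42 over all genes and -0.32 over the members. Without the trend the median was -0.07, so that its sign turned, and Uqcrb, Cox7a2l and Ndufb4, the gene whose promoter letters are shown above, were the lowest of the 75 at -0.66, -0.65 and -0.64. Cox7a2l thus stood below WT at all 3 times on both scales, as did other members, among them Uqcrb and Ndufb4.

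In the macrophages labelled KO, 78 of 80 members were lower at 12 h of LPS than at 0 h. The median difference was -0.46, against -0.36 over all measured genes, and with the length trend removed it was -0.27, against -0.35. None was called higher, where 8.63% of all measured genes were, and 2 were called lower, where 17.5% of all measured genes were. These were Ndufa12, with 43.1 FPKM at 12 h against 90.2 FPKM at 0 h (-1.05), and Cox6a2, with 0.94 FPKM against 3.41 FPKM (-1.18). Ndufs4, an accessory subunit needed for a stable NADH-oxidizing arm and known from a mouse model of Leigh syndrome, went against the others. It held 12.9, 16.3 and 23.0 FPKM in KO at 0, 12 and 24 h, against 19.0, 16.8 and 18.0 FPKM in WT. Its difference at 12 h against 0 h in KO was 0.31, the highest of the members.

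The dip was deeper in WT. All 80 members were lower at 12 h than at 0 h, with a median of -0.90, against -0.28 over all measured genes. Calls of higher levels were absent among the members, where 9.64% of all measured genes were, while 32 were called lower, where 17.4% of all measured genes were. Complex I gave 18 of the 32, 2 of them core subunits (Ndufs7 and Ndufs8, which carry iron-sulfur clusters on the way to ubiquinone) and 16 accessory. Complex III gave 3, complex IV 4, complex V 7 and complex II none. The lowest was Ndufb2, an accessory subunit of the membrane arm, with 28.0 FPKM at 12 h against 79.3 FPKM at 0 h (-1.47). Ndufb10 had a difference of -1.43, Atp5sl, which takes part in complex I assembly, one of -1.42, and Ndufb11 one of -1.39. The smallest difference was that of Ndufs4, -0.17, followed by the complex III core protein Uqcrc2 with -0.31.

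With the length trend removed, the WT median at 12 h was -0.35, against -0.31 over all measured genes, and 2 members were called lower, where 15.7% of all measured genes were. One of them, Atp5sl, has a mean under 10 FPKM, below the range of the curve, and the other was Atp5g1 (-1.08). Its 2 matched transcripts are 596 and 4715 nt long, and it was placed on the curve at their median of 2655.5 nt. On this scale the 7 core subunits of complex I had medians of -0.54 in KO and -0.61 in WT, and the 28 accessory subunits -0.29 and -0.37. Complex IV had the smallest medians, -0.16 in KO and -0.15 in WT.

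At 24 h the genotypes parted as deposited. In KO, 59 of 80 members were higher at 24 h than at 0 h, with a median of 0.31, against -0.39 over all measured genes. In WT, 77 of 80 were lower, with a median of -0.40, against -0.25 over all measured genes. No member was called higher in KO, where 7.55% of all measured genes were, or in WT, where 7.65% were. In KO 1 member was called lower, where 21.6% of all measured genes were. This was Ndufs1 (chromosome 1, 63143592 to 63176822), with 31.1, 18.1 and 14.6 FPKM at 0, 12 and 24 h in KO, against 29.0, 18.0 and 19.5 FPKM in WT. In WT 3 members were called lower, where 13.9% of all measured genes were.

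The 3 called in WT were Cox7a1, Ndufs8 and Atp5g2. Cox7a1 had 2.19 FPKM at 24 h against 9.25 FPKM at 0 h (-1.68), on about 17 and 69 reads. Ndufs8 had 36.6, 20.3 and 30.9 FPKM in KO at 0, 12 and 24 h, against 58.0, 24.7 and 24.2 FPKM in WT (-1.23 at 24 h in WT). Atp5g2, one of 3 genes for the c subunit that forms the rotor ring, had 191, 108 and 140 FPKM in KO, against 330, 133 and 163 FPKM in WT (-1.02 at 24 h in WT). At the other end stood Ndufa2, an accessory subunit of the NADH arm, which had the highest difference in KO, 0.87, with 156 FPKM at 24 h against 84.7 FPKM at 0 h. In WT the highest was that of Cox6a2, 0.11, with 3.43 FPKM against 3.11 FPKM, and then that of Cyc1, 0.09, with 80.3 FPKM against 75.5 FPKM.

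With the length trend removed, the members' medians at 24 h against 0 h were -0.14 in KO and -0.14 in WT, against -0.34 and -0.24 over all measured genes, so the KO median changed sign. Members called lower were then 2 in KO, Ndufs1 at -1.01 and the weakly expressed Cox6a2, where 17.5% of all measured genes were, and 1 in WT, Cox7a1, where 13.1% were. Ndufs1 was the only member with a mean of at least 10 FPKM called on both scales at 24 h in KO. Ndufs4 was the highest of the 75 in KO on this scale, at 0.61.

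The scaling of the columns also moved the comparisons with 0 h. Trimmed-mean factors raised the median of all genes by 0.34 at 12 h and 0.39 at 24 h in KO and by 0.26 and 0.25 in WT, relative to 0 h. With these factors 21 members were called higher and none lower at 24 h in KO, so that Ndufs1 lost its call. Calls of lower levels in WT at 12 h were 5 in place of 32. The share of all measured genes called with these factors was not computed, so these counts are not a result about the members. Relative to the median of all measured genes, the members stood at -0.10 in KO and -0.62 in WT at 12 h, and at 0.70 and -0.15 at 24 h, as deposited. With the length trend removed these distances were 0.08 and -0.04 at 12 h, and 0.20 and 0.10 at 24 h.

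Between 12 and 24 h, most members had higher levels again in both genotypes. In KO 75 of 80 members were higher at 24 h than at 12 h, with a median of 0.72, against -0.07 over all measured genes. Of these, 18 were called higher, where 4.78% of all measured genes were, and none lower, where 7.67% were. Complex I gave 9 of the 18, complex III 4, complex IV 1 and complex V 4. Ndufa2 led with 1.43, on 156 FPKM at 24 h and 57.3 FPKM at 12 h, followed by the core subunit Ndufs7 with 1.39 and by Uqcr11 with 1.33. In WT 77 of 80 were higher, with a median of 0.48, against 0.00, and no member was called in either direction, where 1.82% of all measured genes were called higher and 3.79% lower. Cox7a2l had the highest WT difference, 0.94, and in both genotypes Atp5a1 was lower at 24 h than at 12 h (-0.16 in KO and -0.13 in WT).

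Without the length trend the medians of 24 h minus 12 h were 0.14 in KO and 0.17 in WT, against -0.01 and 0.02 over all measured genes. No member was called higher in KO, where 2.54% of all measured genes were. The difference was above 0 for 55 of the 75 members with a mean of at least 10 FPKM in KO and for 64 of them in WT.

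**Figure D4:**
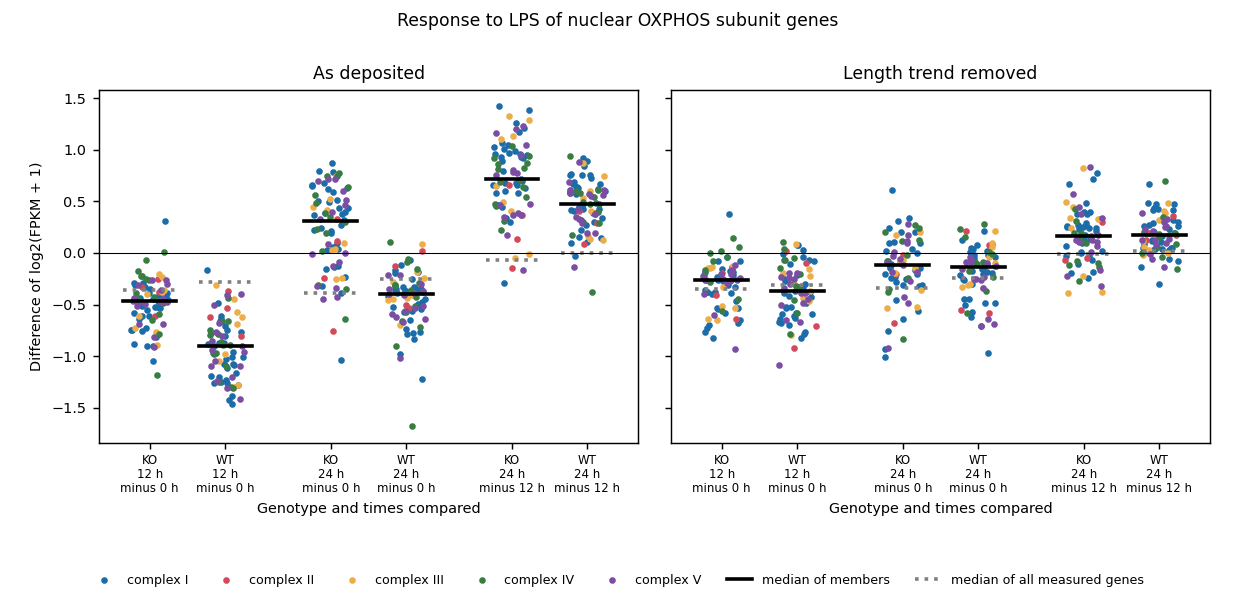
Differences of log2(FPKM + 1) between times within each genotype, KO left of WT in each pair, for each member (points, coloured by complex), as deposited on the left and with the length trend removed on the right, where the 5 members with a mean under 10 FPKM are left out. Black bars are medians of the members drawn and dotted bars medians of all measured genes; as deposited the 24 h minus 0 h medians lie on either side of 0 (0.31 in KO and -0.40 in WT), and without the trend the members lie close to the dotted bars.

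The response in KO minus the response in WT was also taken per gene. It uses the same 0 h libraries as the comparison before LPS, so a low 0 h level in KO enters it as a higher response. At 12 h the members' median was 0.45, against -0.07 over all measured genes, with no member called, where 1.65% of all measured genes were called higher and 3.14% lower. At 24 h it was 0.76, against -0.12, and 74 of 80 members were above 0. Then 14 members were called higher, where 4.04% of all measured genes were, and none lower, where 8.63% were. Atp5e had 1.34, with responses of 0.71 in KO and -0.62 in WT. Cox7a1 had 1.34 as well, on few reads, and Atp5j2, subunit f of the ATP synthase, had 1.29. The other called members were Atp5k, Ndufa2, Ndufa11, Ndufb2, Ndufb3, Ndufb7, Ndufs6, Ndufs7, Uqcr11, Cox4i1 and Cox6c, with values up to 1.26. Ndufs1 (-0.49), Sdha (-0.22), Uqcrc2 (-0.07) and Cyc1 (-0.05) were the abundant members below 0. Each of the 4 has a transcript longer than the median of the members, and the Spearman correlation with length was -0.60 over all genes and -0.64 over the members. With the trend removed the medians were 0.04 at 12 h and 0.03 at 24 h, and no member was called higher at 24 h, where 1.92% of all measured genes were.

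Several subunits exist in more than 1 form, and macrophages used the widespread form in all libraries. The comparisons are of FPKM, a level per length, within a library; since the differences between libraries followed length, changes between libraries in the order or shares of forms of unlike length may hold the same trend. Cox4i1 made up at least 99.9% of the summed FPKM of Cox4i1 and Cox4i2, the form induced by low oxygen, which held at most 0.34 FPKM. Cox6a1 made up at least 99.0% of its pair with Cox6a2, and Cox6b1 at least 99.6% of its pair with Cox6b2. Ndufa4 had 142, 81.6 and 114 FPKM in KO at 0, 12 and 24 h, against 243, 97.6 and 129 FPKM in WT, while Ndufa4l2 held at most 0.29 FPKM. The gap between the main and the rare form was thus large in every library.

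Among the VIIa forms, Cox7a2, the widespread subunit, had 62.5, 59.5 and 106 FPKM in KO at 0, 12 and 24 h, against 107, 63.6 and 96.0 FPKM in WT. Cox7a2l lay above Cox7a2 in every library and reached 129 FPKM at 24 h in KO, against 176 FPKM in WT. The 3 c subunit genes of the ATP synthase encode the same mature protein behind different import sequences. Atp5g1 had 105, 55.5 and 96.6 FPKM in KO, against 140, 67.4 and 87.7 FPKM in WT, and Atp5g3 had 203, 146 and 204 FPKM in KO, against 288, 153 and 195 FPKM in WT. The share of Atp5g2 in the sum of the 3 was 38.2, 34.9 and 31.8% in KO at 0, 12 and 24 h, against 43.5, 37.5 and 36.5% in WT. Atp5g3 held 40.7, 47.2 and 46.3% in KO, against 38.0, 43.4 and 43.8% in WT, so that Atp5g2 was the leading gene in the WT library at 0 h and Atp5g3 in the 5 other libraries. Where these genes share sequence, reads could move between them in the counting, which was not tested.

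Assembly factors build the complexes without staying in them. The 14 measured factors of complex I had a median transcript of 1711 nt, longer than that of the subunits, and 13 of them averaged under 10 FPKM. At 12 h of LPS, 4 were called lower in KO, where 17.5% of all measured genes were, and 3 in WT, where 17.4% were, and none was called higher. Their medians were -0.74 in KO and -0.66 in WT, against -0.36 and -0.28 over all measured genes. Ndufaf7, a methyltransferase of complex I assembly, had 6.69, 1.43 and 3.99 FPKM in KO at 0, 12 and 24 h, against 8.61, 1.77 and 4.16 FPKM in WT. Its 12 h difference was -1.66 in KO and -1.79 in WT. Ndufaf2 was called lower in both (-1.24 and -1.72), Nubpl in WT (-1.44), and Ndufaf4 and Ndufaf6 in KO (-1.04 and -1.08). With the length trend removed the medians of the list were -0.74 in KO and -0.49 in WT, against -0.35 and -0.31 over all measured genes, with all but 1 of the 14 below the range of the curve.

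Complex IV assembly factors went several ways. Of 21, 2 were called higher in KO at 12 h, where 8.63% of all measured genes were, and 4 lower, where 17.5% were. In WT 1 was called higher, where 9.64% were, and 2 lower, where 17.4% were. Cmc2 had 10.1, 1.36 and 5.09 FPKM in KO at 0, 12 and 24 h, against 19.4, 2.63 and 4.34 FPKM in WT, the lowest of the list at 12 h (-2.23 in KO and -2.49 in WT). Coa5 was called higher at 12 h in both (1.08 and 1.35) and Sco1 in KO (1.16). Cox16 was called lower at 12 h in both (-1.07 and -1.42), and Coa6 (-1.07) and Sco2 (-1.38) in KO. Cox17, the copper chaperone and a short message of 444 nt, had 55.6, 81.4 and 164 FPKM in KO, against 84.9, 86.2 and 114 FPKM in WT. Its 24 h difference of 1.54 in KO was the highest of the list, and 0.95 with the length trend removed, short of a call. Cox19 (1.08), Cox14 (1.07) and Pet100 (1.16) were also called higher at 24 h in KO, where 7.55% of all measured genes were. Cox15 (-1.10), Pet117 (-1.36) and Sco2 (-1.01) were called lower there, where 21.6% were. With the trend removed Cox19 kept its call (1.08), as did Pet117 (-1.85) and Sco2 (-1.36), both under 10 FPKM in every library. Cox14, Pet100 and Cox15 did not. On this scale 17.5% of all measured genes were called lower at 24 h in KO, and the share called higher is not given. At 0 h, 1 of the 21 was called lower in KO, where 1.26% of all measured genes were. This was Pet100, with 11.9 FPKM in KO and 27.0 FPKM in WT (-1.12), and the call was lost with the trend removed (-0.77). Of the 5 measured complex III factors, Uqcc2, with transcripts of 500 nt, was called lower at 12 h in both genotypes as deposited. Its differences were -1.06 in KO, where 17.5% of all measured genes were called lower, and -1.36 in WT, where 17.4% were. With the trend removed it was called in neither (-0.82 and -0.56). None of 4 complex II factors and none of 3 complex V factors was called as deposited. Over the comparisons 0.727 to 21.6% of all measured genes were called per direction, so absent calls among so few genes say little. With the trend removed Sdhaf3, a complex II factor of at most 5.61 FPKM, passed 2-fold at 12 h in WT (-1.01), where 15.7% of all measured genes were called lower. It also did so in the 24 h difference of responses (1.05), where 1.92% were called higher.

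The 14 carriers and further chain genes include abundant messages, such as the uncoupling protein gene Ucp2, with 557 FPKM in KO and 682 FPKM in WT at 0 h. At 12 h of LPS 13 of the 14 were lower in each genotype and 4 in each were called, where 17.5% of all measured genes were in KO and 17.4% in WT. Their medians were -0.81 in KO and -0.88 in WT, against -0.36 and -0.28 over all measured genes, and -0.70 and -0.71 with the length trend removed, against -0.35 and -0.31. At 24 h 11 were lower in KO and 12 in WT, with medians of -0.54 and -0.69, against -0.39 and -0.25 over all measured genes. Ucp2 was called lower there in KO (-1.23) and in WT (-1.17), where 21.6 and 13.9% of all measured genes were. With the length trend removed Ucp2 was not called in KO (-0.94) and was called lower in WT (-1.25), where 13.1% of all measured genes were. Atpif1, the inhibitor of the ATP synthase, had 70.0, 36.3 and 49.7 FPKM in KO at 0, 12 and 24 h, against 118, 35.3 and 39.7 FPKM in WT. Etfb, which feeds electrons of fatty acid oxidation to ubiquinone, had 70.2, 38.9 and 62.4 FPKM in KO, against 107, 36.1 and 33.7 FPKM in WT. As deposited both were called lower in WT at 12 and 24 h and not in KO, and the difference of responses at 24 h, which was not tested, was 1.06 for Atpif1 and 1.48 for Etfb. With the trend removed that difference was 0.17 for Atpif1 and 0.77 for Etfb, and neither was called at 12 h in WT (-0.94 and -0.98). At 24 h Atpif1 was then called lower in KO (-1.04) as well as in WT (-1.21). Etfb was still called lower at 24 h in WT (-1.37) and not in KO (-0.60). Dhodh was called lower at 12 h in both (-1.33 in KO and -1.18 in WT), as was the adenine nucleotide carrier Slc25a5 as deposited (-1.01 and -1.07). Cycs, cytochrome c, was the gene that went the other way at 12 h, with 0.65 in KO and 0.30 in WT, short of a call. Higd1a had 0.82 in KO and 0.32 in WT at 24 h against 0 h.

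Of 13 measured regulators of mitochondrial genes, none was called in a KO minus WT comparison at 0, 12 or 24 h. Of all measured genes, 0.727 to 2.96% were called there per direction. None was called in WT after LPS, where 9.64% of all measured genes were called higher and 17.4% lower at 12 h. At 24 h against 0 h in WT these shares were 7.65 and 13.9%. Polrmt, the mitochondrial RNA polymerase, was called lower at 12 h in KO (-1.05), where 17.5% of all measured genes were. In KO at 24 h against 0 h, 1 was called higher, Esrra (1.05), where 7.55% of all measured genes were. There 4 were called lower, Gabpb2 (-1.65), Pprc1 (-1.27), Tfb2m (-1.16) and Gabpa (-1.13), where 21.6% of all measured genes were. The 13 have a median transcript of 3656 nt. With the length trend removed Pprc1 (-0.88) and Gabpa (-0.75) were not called at 24 h in KO. Gabpb2 (-1.07), Tfb2m (-1.17) and Esrra (1.01) still passed 2-fold there, and Polrmt did so at 12 h in KO (-1.09). Of all measured genes, 17.5% were called lower on this scale at 24 h in KO. The share called higher there, and the share called lower at 12 h in KO, are not given for this scale. In the difference of responses as deposited, Pprc1 was called lower at 12 h (-1.18), where 3.14% of all measured genes were, and Pprc1 (-1.02) and Gabpb2 (-1.22) at 24 h, where 8.63% were. None of these 3 values passed 2-fold with the trend removed (-0.905, -0.47 and -0.39). Gabpb2 had 9.37, 4.95 and 2.30 FPKM in KO at 0, 12 and 24 h, against 7.82, 6.43 and 5.55 FPKM in WT. Nrf1, whose motif is shown above, had 8.28, 5.08 and 6.98 FPKM in KO, against 7.66, 6.00 and 5.86 FPKM in WT. Ppargc1a, the coactivator that drives mitochondrial genes in muscle and brown fat, stayed at or below 0.08 FPKM in every library. The subunits encoded by mitochondrial DNA were not analysed here.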

How the data were processed

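RNA of 6 macrophage libraries was sequenced on the BGISEQ-500 platform, per the labels' protocols. FPKM was computed by the authors and deposited as 1 gene table with 2 decimals, per the file headers; per the submitters' processing notes, Bowtie2, RSEM and the build GRCm38 were used, with no versions. Counts were not used here. All 6 value columns were matched to samples by title. The table has 17905 rows; 1 names no gene and was left out, and 2 cells are not numeric.

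Differences are of log2(FPKM + 1), which understates changes of low genes. A gene was measured at 1 FPKM or more in any library and called at 2-fold. Transcript lengths are medians of GENCODE transcripts (99.0% of measured genes have one). For each library, the deviation of log2(FPKM + 1) from its average over the 6 libraries was smoothed over log2 length by lowess (span of 0.3, statsmodels 0.14.6, pandas 2.3.3), using genes that averaged 10 FPKM or more, and the centred curve was subtracted; the procedure was tested on simulated data. Depth was estimated with an assumed read length of 50 nt, so counting errors are approximate and cover counting only.

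The members and lists were chosen with earlier results of these data known. Named in full are, by the rule used, members with the highest or lowest difference or a call, the 2 most abundant of each complex and the isoforms. From the other lists up to 3 genes and called genes are named, and not every call of these lists is given. Where over 10 were called, they are summarised. Other pseudocounts, minimums, scalings, fold rules and curve settings were tried. Protein identities were not used here. The values of 1 member of complex I are not reported here by name.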

Additional observations from a re-analysis of the deposited data

Results flagged for a closer look

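The members' response to 24 h of LPS had opposite directions in the genotypes as deposited. The median difference of log2(FPKM + 1) against 0 h was 0.31 in KO and -0.40 in WT over the 80 genes. It was 0.37 in KO and -0.39 in WT for complex I, and 0.35 in KO and -0.35 in WT for complex IV. With 1 library a group, the difference between the genotypes was not tested. Differences of this comparison followed transcript length, with a Spearman correlation of -0.60 over all genes, and the part of the length trend in it is given by the medians without the trend, -0.14 in both genotypes for the 80 genes.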

How the results depend on the processing

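No paired analysis was possible because each group is 1 library, all with the replicate number 1. The 11 medians and 11 counts of calls were recomputed under each setting; the values that moved follow, in the order KO minus WT at 0, 12 and 24 h, then LPS 12 h minus 0 h, 24 h minus 0 h and 24 h minus 12 h in KO, the same in WT, and the KO minus WT difference of responses at 12 and 24 h. With the length trend removed the medians were -0.0902, -0.0421 and -0.0734, then -0.27, -0.14 (sign turned) and 0.14, then -0.35, -0.14 and 0.17, then 0.0412 and 0.0313. Calls were then 0 for KO minus WT at 0 h (4 as deposited), 0, 2 and 0 in KO (2, 1 and 18), 2 and 1 in WT against 0 h (32 and 3), and 1 and 1, both lower, for the differences of responses (0 and 14 higher). Trimmed-mean scaling (median-of-ratios scaling in parentheses) moved the median to 0.28 (0.27) for KO minus WT at 24 h, to -0.0669 (-0.0690) and 0.79 (0.79) for KO and -0.61 (-0.61) and -0.10 (-0.0933) for WT at 12 and 24 h against 0 h, and to 0.92 (0.91) for the 24 h difference of responses. It gave 0 (0), 21 (20) and 29 (29) calls in KO, all higher, 5 (5) and 1 (1) in WT against 0 h, and 1 (1) and 32 (32) for the differences of responses. A 1.5-fold rule gave 48, 1 and 2, then 25, 21 and 52, then 69, 18 and 30, then 20 and 53 calls. The 21 calls for KO at 24 h against 0 h were 18 higher and 3 lower. The 48 calls for KO minus WT at 0 h and the 69 for WT at 12 h against 0 h were all lower. For the scalings, the fold rule, the pseudocounts and the minimum, shares of all measured genes called were not computed. The counts can therefore not be set against other genes. A pseudocount of 5 left 2 calls for KO minus WT at 0 h, 0 and 0 for KO against 0 h, 1 for WT at 24 h against 0 h and 9 for the 24 h difference of responses. A pseudocount of 0.1 gave 1 call for KO minus WT at 12 h, 1 for WT at 24 h against 12 h and 2 for the 12 h difference of responses, and a minimum of 5 FPKM left 1 for KO at 12 h. Curves fitted without the members, without them and the ribosomal protein genes, with a span of 0.6 or on the shortest transcript were chosen in part after seeing the data and kept all 11 corrected medians within 0.1; a curve on genes averaging 1 FPKM or more gave -0.40 and -0.27 for KO at 12 and 24 h against 0 h. Apart from the length trend, which was itself measured, the cause of these moves was not tested. Depth limits the 5 weakest members, with about 2 to 583 reads.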
